A study of Mus musculus with 2 samples.

Results

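Epithelial and mesenchymal identity was followed through 10 genes in mouse embryonic fibroblasts (MEFs) with and without a Dnmt1 mutation. The genes are Cdh1, Epcam, Krt8 and Krt18, which mark epithelial cells, Cdh2 and Vim, which mark mesenchymal cells, and the transcription factors Snai1, Snai2, Zeb1 and Zeb2. They were found by symbol in the deposited table, where each of the 10 had 1 entry among 29126. Strand-specific mRNA-seq was done once for each genotype, giving 1 Dnmt1+/+ and 1 Dnmt1-/- library. The line labelled Dnmt1-/- carries, on both chromosomes, an allele with reduced function of Dnmt1 (the n allele), which encodes the maintenance DNA methyltransferase. Both lines are homozygous null for trp53, and their strain is given as unknown. Values are RPKM, a read density that takes account of transcript length and sequencing depth, so that levels of different genes can be compared within a library. With 1 library per genotype there was no replicate check and no test, and every difference describes these 2 libraries.

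In an epithelium, E-cadherin (Cdh1) and Epcam join neighbouring cells at their surfaces, and keratins 8 and 18 pair to form the filaments of simple epithelial cells. Mesenchymal cells such as fibroblasts instead carry N-cadherin (Cdh2) and filaments of vimentin (Vim). In the epithelial-mesenchymal transition (EMT) of development, Snail (Snai1), Slug (Snai2) and the Zeb proteins bind E-box sequences and repress Cdh1 and other epithelial genes. These factors are ordinarily expressed in fibroblasts.

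The level of Dnmt1 itself was 65.2 RPKM in Dnmt1+/+ MEFs, against 14.5 in Dnmt1-/-. Xist, the RNA that coats an inactive X chromosome, had a level of 0.00648 RPKM in Dnmt1+/+ against 37.0 in Dnmt1-/-, and Ddx3y, Eif2s3y and Kdm5d of the Y chromosome were listed at 0 in Dnmt1-/- against 5.90 to 18.8 RPKM in Dnmt1+/+. Trp53 RNA was present in both lines, at 18.6 and 19.9 RPKM respectively, and a value over the whole gene does not check the loss of part of it. The 2 lines differed in sex-chromosome RNA as well as in Dnmt1, and effects of the line and of the genotype cannot be told apart. Changes are given as log2(RPKM + 0.1) in Dnmt1-/- minus Dnmt1+/+, a scale that understates the change of low genes. Over the 11244 genes with a symbol, the status OK and at least 1 RPKM in one library or the other, the median change was -0.14, relative to which single changes are to be read.

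The starts of the epithelial members are shown first, because E-boxes there are where Snail and Zeb proteins are known to act and CpG dinucleotides there are where DNA can be methylated. Promoters from the RefSeq table (GRCm38.p6) were used for 6 of the 10 members, namely Epcam, Krt8, Krt18, Vim, Snai1 and Zeb2. No promoter was used for Cdh1, Cdh2, Snai2 or Zeb1, which does not show that the table lacks one for each of them. The 250 bases before the start of the gene are printed, 5' to 3' on the strand of the gene, with the E-box CAGGTG or its reverse complement CACCTG in capitals. Epcam lies on the plus strand (chr17:87635729-87635978), Krt8 on the minus strand (chr15:102004343-102004592) and Krt18 on the plus strand (chr15:102027966-102028215). The window of Vim (chr2:13574061-13574310, plus strand) is given for comparison with a mesenchymal gene.
Epcam: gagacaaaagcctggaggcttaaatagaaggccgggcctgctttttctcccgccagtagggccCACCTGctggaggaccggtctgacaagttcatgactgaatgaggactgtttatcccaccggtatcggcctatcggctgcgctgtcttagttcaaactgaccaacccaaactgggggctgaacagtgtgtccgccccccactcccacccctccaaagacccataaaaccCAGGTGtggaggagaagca
Krt8: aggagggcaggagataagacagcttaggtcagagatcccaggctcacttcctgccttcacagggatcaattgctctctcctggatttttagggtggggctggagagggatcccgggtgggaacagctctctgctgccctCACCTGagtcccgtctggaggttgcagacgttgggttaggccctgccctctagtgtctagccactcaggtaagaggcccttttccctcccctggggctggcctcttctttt
Krt18: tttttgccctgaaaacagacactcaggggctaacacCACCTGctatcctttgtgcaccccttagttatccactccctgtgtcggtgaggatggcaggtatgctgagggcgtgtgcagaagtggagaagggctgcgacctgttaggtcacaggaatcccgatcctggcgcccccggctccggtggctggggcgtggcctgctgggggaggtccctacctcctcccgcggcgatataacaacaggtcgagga
Vim: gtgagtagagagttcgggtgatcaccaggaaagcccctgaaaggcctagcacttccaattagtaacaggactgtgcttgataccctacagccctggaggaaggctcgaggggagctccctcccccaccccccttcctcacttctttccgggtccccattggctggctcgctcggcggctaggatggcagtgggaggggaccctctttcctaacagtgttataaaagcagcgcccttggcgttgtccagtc

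The Epcam window held 2 copies of the E-box, beginning 187 and 19 bases before the start. Krt8 held 1 copy at 111 bases and Krt18 held 1 at 214 bases before the start. Snai1 also held 1 copy, at 126 bases, while the windows of Vim and all 4 windows of Zeb2 held none. Among all 32851 windows of the same length in the table, 17.2% held at least 1 copy. The 3 epithelial windows differed in CpG content, with 3 CpG dinucleotides in Krt8, 8 in Epcam and 12 in Krt18, where the median of all windows was 6. Vim held 8 and Snai1 held 27. A match to these letters describes the sequence and shows neither binding nor methylation.

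The epithelial members were at very low levels in both libraries, and none of the 4 reached 1 RPKM in either. Cdh1 (chr8:109127268-109194146, plus strand; NCBI37, mm9, as are all gene positions that follow) had the status OK and was at 0.203 RPKM in Dnmt1+/+ and 0.0700 in Dnmt1-/- MEFs, a change of -0.84. The value was therefore lower, not higher, in the hypomethylated cells. Among the 14865 entries with a symbol and status OK, 18.9% were lower than Cdh1 in Dnmt1+/+ and 12.4% in Dnmt1-/-. Epcam (chr17:88035319-88050467, plus strand) was at 0.0466 RPKM in Dnmt1+/+ and 0.00921 in Dnmt1-/-. It is the one member with the status NOTEST, which Cuffdiff gives an entry it did not test, and no change is counted for it.

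The keratin pair had the opposite direction from Cdh1 and Epcam. Krt18 (chr15:101858647-101862457, plus strand) was at 0.0358 RPKM in Dnmt1+/+ and 0.441 in Dnmt1-/-, a 12.3-fold higher value and a change of 1.99 on the log2(RPKM + 0.1) scale. Krt8 (chr15:101827142-101834773, minus strand) lies 23.9 kb away. No Krt8 RNA was listed in Dnmt1+/+ (a value of 0), against 0.216 RPKM in Dnmt1-/-, a change of 1.66 on the same scale. Both had the status OK. Both partners were thus listed above 0 in Dnmt1-/- MEFs, with Krt18 at 2.04 times the RPKM of Krt8, but low: of the entries with a symbol and status OK, 77.4% were at or above Krt18 and 81.6% at or above Krt8. In bulk RNA, a few cells with these keratins and a low level in every cell cannot be told apart.

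**Figure D1:**
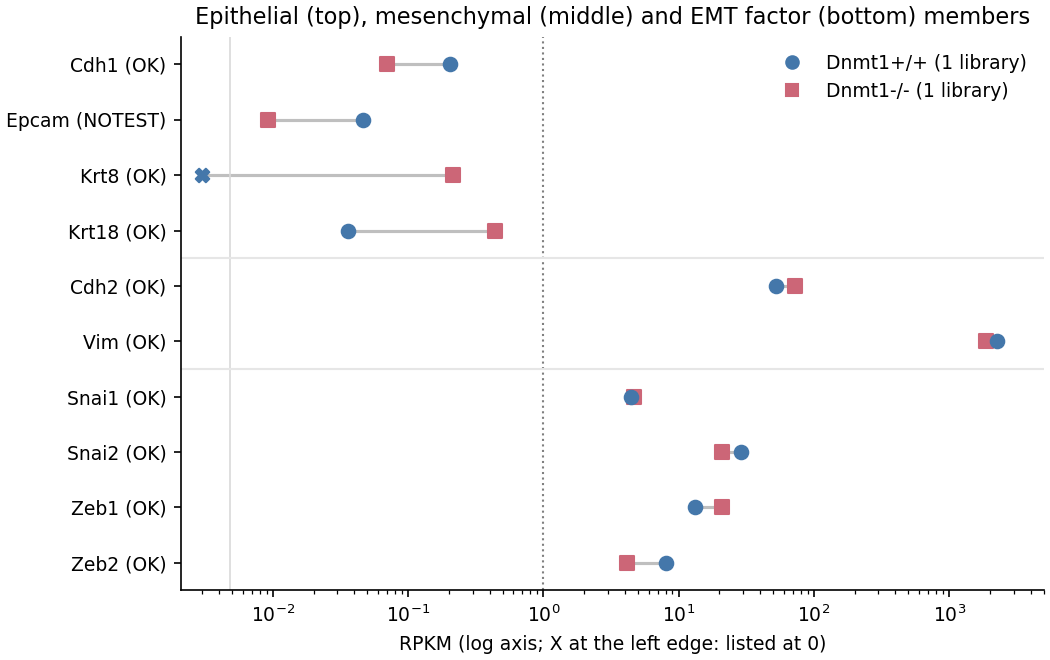
RPKM of the 10 members in the Dnmt1+/+ library (blue circles) and the Dnmt1-/- library (red squares) on a log axis, with the Cuffdiff status beside each name, a dotted line at 1 RPKM and an X at the left edge for Krt8, which was listed at 0 in Dnmt1+/+. The 4 epithelial members sit below 0.5 RPKM and the other 6 above 4 RPKM in both libraries.

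The mesenchymal members were abundant in both libraries and differed less than 2-fold between them. Vim (chr2:13495356-13504453, plus strand) was at 2269 RPKM in Dnmt1+/+ and 1873 in Dnmt1-/- MEFs, a change of -0.28. Only 0.0202% of the entries with a symbol and status OK were at or above it in Dnmt1+/+, itself included, and 0.0471% in Dnmt1-/-. Cdh2 (chr18:16747386-16967558, minus strand) was at 52.4 RPKM in Dnmt1+/+ and 72.1 in Dnmt1-/-, a change of 0.46. Its level was above that of 90.5% of these entries in Dnmt1+/+ and 93.3% in Dnmt1-/-.

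Ratios within a library do not depend on how the libraries were scaled. The RPKM of Cdh2 was 257 times that of Cdh1 in Dnmt1+/+ MEFs and 1030 times in Dnmt1-/-. Vim was 63369 times as high as Krt18 in Dnmt1+/+ and 4250 times in Dnmt1-/-. The cadherin ratio thus lay further toward the mesenchymal side in Dnmt1-/- and the filament ratio less far. Both denominators are under 1 RPKM and have no error estimate.

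All 4 transcription factors were expressed in both libraries, at 4.12 to 28.9 RPKM. Snai1 (chr2:167363658-167368311, plus strand) was at 4.41 RPKM in Dnmt1+/+ and 4.67 in Dnmt1-/-, a change of 0.08, which is 0.22 after centring on the median of all genes. Snai2 (chr16:14705660-14709475, plus strand) was at 28.9 RPKM in Dnmt1+/+ and 21.0 in Dnmt1-/-, a change of -0.46. Slug was the more abundant of the pair, at 6.55 times the RPKM of Snail in Dnmt1+/+ and 4.49 times in Dnmt1-/-.

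The 2 Zeb genes had opposite directions. Zeb1, on the plus strand of chromosome 18, was at 13.1 RPKM in Dnmt1+/+ and 20.8 in Dnmt1-/-, a change of 0.66. Zeb2 (chr2:44839154-44969604, minus strand) was at 8.01 RPKM in Dnmt1+/+ and 4.12 in Dnmt1-/-, a change of -0.94. The RPKM of Zeb1 was 1.64 times that of Zeb2 in Dnmt1+/+ and 5.04 times in Dnmt1-/-, so the balance of the pair moved toward Zeb1. The Zeb2 entry is joined with the microRNA gene Mir5129. Its locus is shared with Gm13476, at 0.482 RPKM in Dnmt1+/+ and 0.238 in Dnmt1-/-. The locus of the Zeb1 entry, from 5491499 to 5774909, is shared with Gm10125, at 0.0536 and 0.333 RPKM, and with an entry without a symbol, at 94.9 RPKM in Dnmt1+/+ against 173 in Dnmt1-/-. The part of these shared entries in the Zeb1 and Zeb2 values was not tested. The 5 entries of the miR-200 family (Mir141, Mir200a, Mir200b, Mir200c and Mir429), which are known to repress Zeb1 and Zeb2, were listed at 0 in both libraries with the status NOTEST. Mature microRNAs are not measured by mRNA-seq.

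Of the 10 members, 9 had the status OK and 6 of these, Cdh2, Vim and the 4 factors, passed the minimum of 1 RPKM. In Dnmt1-/- MEFs, 0 of these 6 members were past 2-fold upward, against 8.47% of the 11244 genes, and 0 were past 2-fold downward, against 10.9%. Zeb2 lay just inside the threshold, with 1.95-fold more RPKM in Dnmt1+/+, and 21.1% of the 11244 genes had a larger change in either direction. With a threshold of 1.5-fold, Zeb1 counted as higher, against 14.1% of all genes, and Zeb2 as lower, against 23.7%. Without the minimum of 1 RPKM, 2 of the 9 members with status OK counted as more than 2-fold higher, Krt8 and Krt18, against 9.92% of 14865 genes. None counted as lower, against 11.1%. The changes of genes this low depend on the pseudocount, and with a pseudocount of 1 in place of 0.1 they were 0.48 for Krt18, 0.28 for Krt8 and -0.17 for Cdh1, all within 2-fold, while without a pseudocount Cdh1 was at -1.54.

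**Figure D2:**
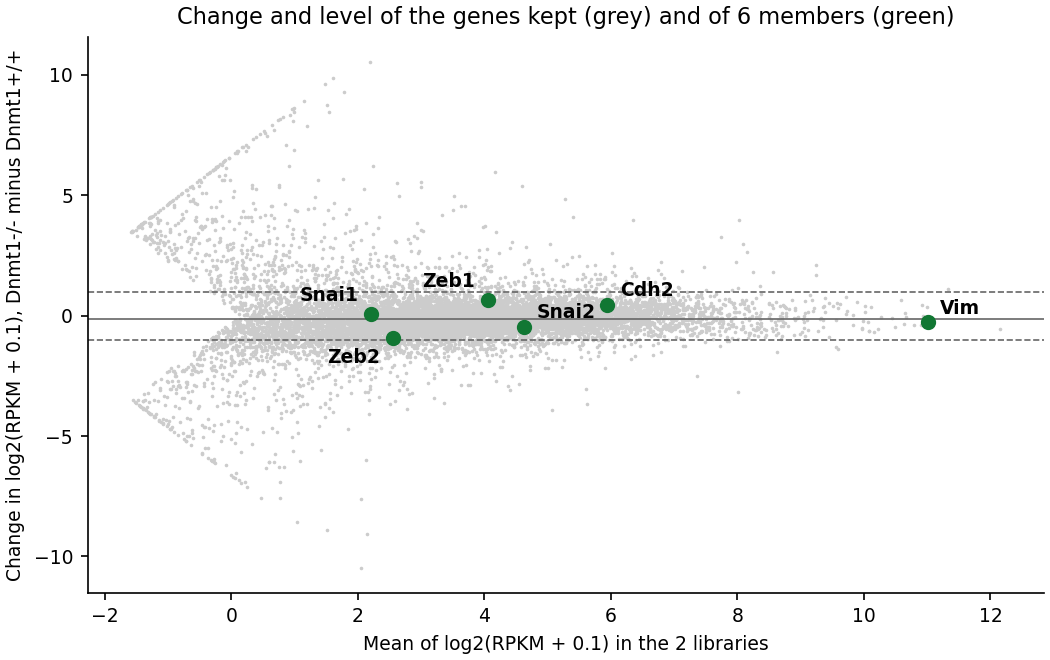
Change in log2(RPKM + 0.1) from Dnmt1+/+ to Dnmt1-/- against the mean of log2(RPKM + 0.1) for the 11244 genes kept (grey points) and the 6 members among them (green), with dashed lines at 2-fold and a solid line at the median of -0.14. All 6 members lie between the dashed lines, with Zeb2 nearest to the lower one.

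Genes beyond the 10 members were taken from lists of fibroblast and epithelial genes. The fibroblast and mesenchymal list had 20 entries, of which 18 passed the minimum. In Dnmt1-/- MEFs 3 of these 18 rose, against 8.47% of all genes kept, 5 fell, against 10.9%, and 10 stayed within 2-fold. The median change was -0.13, next to -0.14 over all genes. Collagen I and osteonectin were among the most abundant, with Col1a1 at 1448 RPKM in Dnmt1+/+ against 898 in Dnmt1-/-, and Sparc at 897 against 918. Fibronectin (Fn1) fell from 664 to 235 RPKM, Col1a2 from 1241 to 476, the cadherin Cdh11 of mesenchymal cells from 86.9 to 34.8 and Tcf4 from 22.2 to 10.9, the last of these within 2-fold under all 3 other scalings and with a pseudocount of 1. The calcium-binding protein gene S100a4 rose from 290 to 1262 RPKM, the receptor gene Pdgfra from 6.95 to 18.7 and Twist2 from 8.96 to 22.7. The surface marker Thy1 fell from 4.84 to 0.129 RPKM, and Fap and Lum were under 0.1 RPKM in both libraries with the status NOTEST. Collagen I, Sparc and Fn1 RNA, typical of fibroblasts, was thus abundant in both libraries, Thy1 was low in Dnmt1-/-, and Fap and Lum were near 0 in both.

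Several cadherins other than Cdh1 and Cdh2 were past 2-fold. Of 24 entries named Cdh, the 2 members included, 10 passed the minimum, of which 5 rose and 2 fell, where the shares of all genes kept were 8.47% and 10.9%, and Cdh2 was among the 3 within 2-fold. The minimum itself shaped these counts, since Cdh17, Cdh19, Cdh26 and the joint entry of Cdh29, Cdhr4 and Uba7 reached 1 RPKM in Dnmt1-/- alone and Cdh10 in Dnmt1+/+ alone. The joint entry, at 0.769 RPKM in Dnmt1+/+ and 3.28 in Dnmt1-/-, does not separate its genes and may hold the RNA of any of them. Cdh3, the P-cadherin gene, ends 46.5 kb before Cdh1 on chromosome 8 and rose from 30.0 to 86.8 RPKM. It was thus 148 times as high as its neighbour Cdh1 in Dnmt1+/+ and 1240 times in Dnmt1-/-. In Dnmt1+/+ the 3 most abundant cadherins were, in descending order, Cdh11, Cdh2 and Cdh3, and in Dnmt1-/- Cdh3, Cdh2 and Cdh11, with no error estimate for either order. Cdh17, a cadherin of intestine, rose from 0.0726 to 2.54 RPKM, and Cdh10 fell from 1.88 to 0.0464. Where the mean RPKM had to reach 1, Cdh10, Cdh19 and Cdh26 were no longer counted. In the list of cadherin-binding proteins 8 of 12 entries passed the minimum, of which none rose and 2 fell. The catenins Ctnnb1, Ctnna1 and Ctnnd1 were within 2-fold, with Ctnnb1 at 163 and 173 RPKM, Ctnna1 at 182 and 211 and Ctnnd1 at 67.5 and 63.3 in Dnmt1+/+ and Dnmt1-/- MEFs, respectively. Plakoglobin (Jup), the catenin of desmosomes, fell from 9.57 to 2.51 RPKM, and the nectin gene Pvrl3 fell 2.15-fold, to 4.18 RPKM, which is within 2-fold with a pseudocount of 1 or after centring on the median. Ctnnd2, under the minimum, was at 0.122 RPKM in Dnmt1+/+ and 0.591 in Dnmt1-/-. Cdhr1, also under it, went the other way, from 0.325 to 0.0434 RPKM. Without the minimum, 1 entry of this list counted as higher, against 9.92% of all genes, and 3 as lower, against 11.1%.

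Among the keratins other than Krt8 and Krt18, 6 of 16 entries in the list passed the minimum, of which 3 rose and 2 fell, next to 8.47% and 10.9% of all genes kept. Krt7 and the joint entry of Krt14 and Krt17 reached 1 RPKM in Dnmt1-/- alone, and Krt19 in Dnmt1+/+ alone. Krt7, another keratin of simple epithelia on chromosome 15, rose from 0.150 to 3.68 RPKM, and Krt80 rose from 1.54 to 6.09. The joint entry of Krt14 and Krt17 rose from 0.0349 to 1.46 RPKM, and these paralogs are not separated there, so the value is uncertain for each. The joint entry was not counted where the mean RPKM had to reach 1. Krt19 fell from 6.90 RPKM, the highest keratin value in Dnmt1+/+, to 0.326, and Krt13 fell from 3.21 to 1.32, which is within 2-fold with a pseudocount of 1. The highest keratin in Dnmt1-/- was Krt80. All 6 were above 0 in both libraries, and the summed RPKM over the list was 13.0 in Dnmt1+/+ and 14.6 in Dnmt1-/-.

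**Figure D3:**
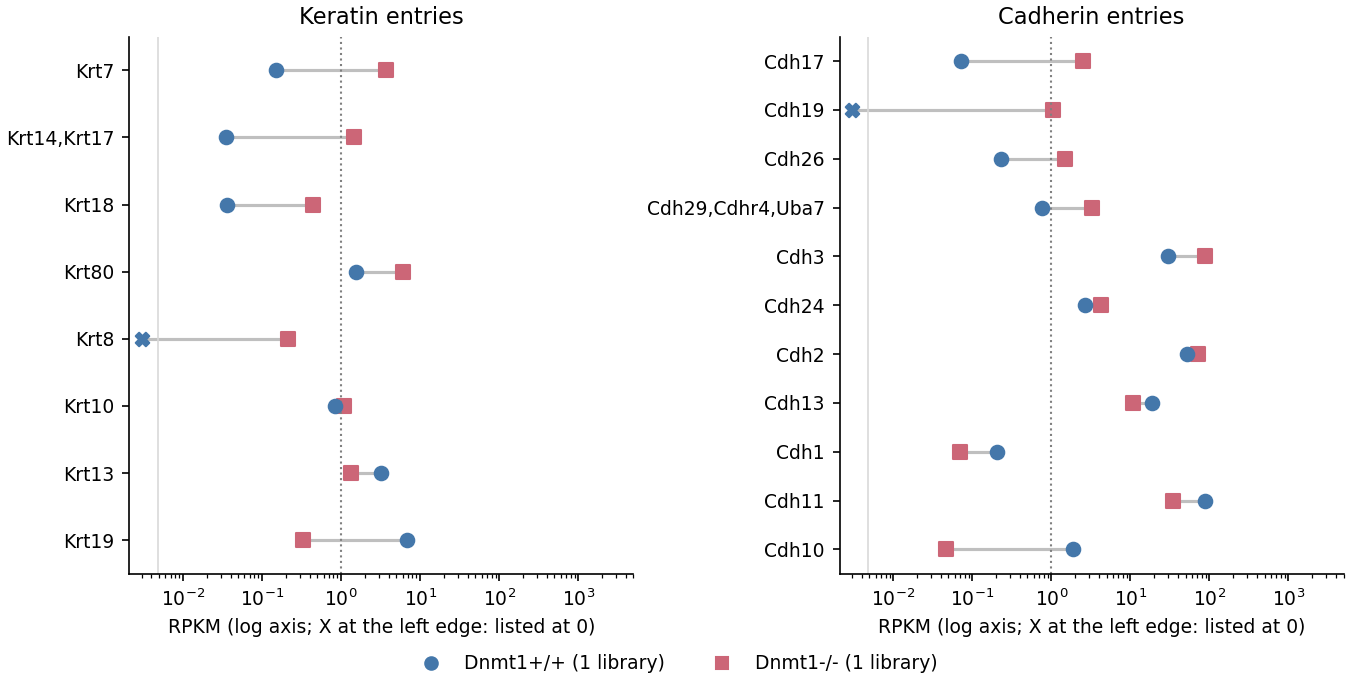
RPKM of keratin entries (left) and cadherin entries (right) in the Dnmt1+/+ library (blue circles) and the Dnmt1-/- library (red squares) on log axes, for entries that passed the minimum of 1 RPKM and for Krt8, Krt18 and Cdh1, ordered by change; a dotted line marks 1 RPKM and an X an entry listed at 0. Krt7 lies highest by change and Krt19 lowest on the left, and Cdh3 exceeds Cdh2 in Dnmt1-/- on the right.

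The list of epithelial junction and adhesion genes had 25 entries, of which 15 were under 1 RPKM in both libraries. Of the 10 that passed the minimum, 2 rose, Cdh3 and the tight junction gene Cgn, which went from 0.280 to 3.85 RPKM. The 4 that fell were Jup, the claudin gene Cldn1, from 2.28 to 0.324 RPKM, the junctional adhesion molecule F11r, from 1.98 to 0.763, and Perp, from 1.68 to 0.537. The shares of all genes kept were 8.47% higher and 10.9% lower. Cgn reached 1 RPKM in Dnmt1-/- alone, and Cldn1, F11r and Perp in Dnmt1+/+ alone. With a pseudocount of 1, F11r and Perp were within 2-fold. The median change of the 10 was -0.38. Desmoplakin (Dsp), just under the minimum, was at 0.00376 RPKM in Dnmt1+/+ and 0.987 in Dnmt1-/-. Cldn3 and Crb3 were listed at 0 in both libraries.

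Of 18 entries for transcription factors, splicing factors, proteases and other proteins of epithelial cells, 17 were under 1 RPKM in both libraries. Klf5, a transcription factor of many epithelia that is not restricted to them, rose from 1.77 to 7.70 RPKM. Esrp1, Ovol2, Grhl3, Elf3, Ehf and Ap1m2 were listed at 0 in both libraries. Grhl2 was at 0.00388 RPKM in Dnmt1+/+ and 0.210 in Dnmt1-/-. Trp63, a factor of stratified epithelia, had 0.549 RPKM in Dnmt1+/+ against 0.312 in Dnmt1-/-. The splicing factor gene Esrp2 had 0.122 and 0.283, respectively. In Dnmt1-/-, the values of Grhl2, Trp63 and Esrp2 were near those of Krt8 and Krt18, at 0.216 and 0.441 RPKM. In the same library 8 of the 18 entries were listed at 0.

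**Figure D4:**
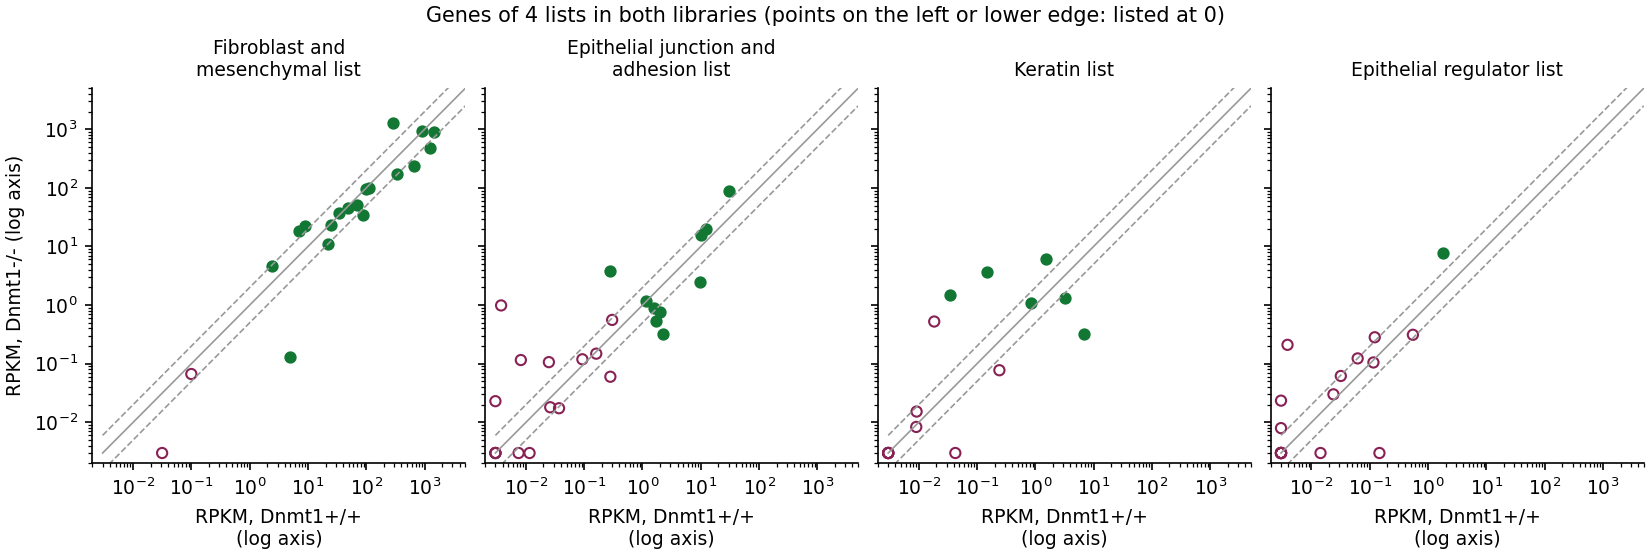
RPKM in Dnmt1-/- against RPKM in Dnmt1+/+ on log axes for the entries of 4 lists; filled green points passed the minimum of 1 RPKM, open points did not, points on the left or lower edge were listed at 0, the solid line marks equal values and dashed lines mark 2-fold. Of the 18 filled points in the fibroblast list, 10 lie between the dashed lines, 3 above and 5 below them, and 17 of 18 epithelial regulators lie below 1 RPKM in both libraries.

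Markers of other cell types were examined in the same way. None of 9 endothelial entries and none of 8 entries for pluripotent cells reached 1 RPKM in either library. Of 8 haematopoietic entries, 2 passed the minimum and both rose, against 8.47% of all genes kept. Csf1r rose from 0.0702 to 6.08 RPKM and Cd68 from 0.596 to 3.63, and both reached 1 RPKM in Dnmt1-/- alone. Ptprc, Emr1, Tyrobp and Cd48 were listed at 0 in both libraries. The summed RPKM of the 8 entries was 0.681 in Dnmt1+/+ and 9.77 in Dnmt1-/-. Of 8 neural entries, Tubb3 alone reached 1 RPKM, at 16.9 in Dnmt1+/+ and 12.9 in Dnmt1-/-. Of 8 muscle entries, 4 reached 1 RPKM, of which 2 rose and none fell, against 8.47% and 10.9% of all genes kept. Tnnt2 rose from 2.30 to 27.7 RPKM and Myf5 from 0.106 to 3.28, and Myf5 reached 1 RPKM in Dnmt1-/- alone. Any part of these cell types in the values of the members was not tested.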

How the data were processed

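Single-end, strand-specific mRNA-seq reads of 50 bp came from 1 library per genotype. Per the labels and methods, alignment to mm9 was done with TopHat, transcript assembly with Cufflinks, and the deposited RPKM values were computed by the authors with Cuffdiff. The annotation was that of mm9, program versions are not given in the sources used here, and use of strand in counting is not stated, so overlapping genes are uncertain. The table holds no read totals, and those stated by the study were not used. Low RPKM multiplied by transcript length fell within 0.1 of a whole multiple of its modal value in 26.6% and 25.1% of genes, so whole read counts were not recovered from the values, and no intervals or detection limits were computed. Zeros are given as listed.

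Members were found by splitting the gene column on commas. They and the lists were chosen with earlier results of these data known. From each list, up to 4 genes past 2-fold in each direction were named, with the most abundant genes and defining markers. The remaining keratin, cadherin and claudin entries, and Dsp, Grhl2 and the miR-200 entries, were added after their values were seen. Genes with a symbol, the status OK and a higher value of at least 1 RPKM were kept, and a change past 2-fold on the log2(RPKM + 0.1) scale was counted, with no test. Counting was tested on simulated data. Table positions are 1-based in mm9 and strands are from Gencode vM1 (NCBI37). Promoters and their positions are from RefSeq (GRCm38.p6), and positions of the 2 builds were not compared. The alternatives were other pseudocounts, filters, scalings and a 1.5-fold threshold. Python 3.11.15, numpy 2.4.6, pandas 2.3.3 and matplotlib 3.10.9 were used.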

Additional observations from a re-analysis of the deposited data

How the results depend on the processing

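Of the 9 alternatives, 2 altered the counts of members past the threshold. Without the minimum of 1 RPKM 2 members, Krt8 and Krt18, counted as higher, because genes under 1 RPKM were then included. With a 1.5-fold threshold 1 member, Zeb1, counted as higher and 1, Zeb2, as lower. With pseudocounts of 1, 0.01 or none, a minimum on the mean RPKM, and scaling by the median change, the summed RPKM or the upper quartile, none of the 6 members passed 2-fold in either direction. Each of the 6 kept the sign of its change under all of these, with Zeb2 between -0.96 and -0.80 and Zeb1 between 0.62 and 0.80. The median change of the members, -0.10 as reported, was 0.04 after centring on the median of all genes and 0.08 without the minimum, so it has no stable sign. The number of entries past 2-fold in the fibroblast list and the 3 epithelial lists together was 20, and it ranged from 16 with a pseudocount of 1 to 26 at 1.5-fold. No paired analysis was possible because each genotype has 1 library, and for the same reason no library could be left out.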

Other observations

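Intermediate filament genes outside the keratins and Vim were measured in both libraries. Nestin (Nes), the filament gene of progenitor cells, rose 2.52-fold, to 126 RPKM in Dnmt1-/- MEFs. The nuclear lamins stayed within 2-fold, with Lmna at 533 RPKM in Dnmt1+/+ against 662 in Dnmt1-/-, and Lmnb1 at 72.6 against 100.3. Desmin (Des), the filament gene of muscle, was at 0.318 RPKM in Dnmt1+/+ and 0.0780 in Dnmt1-/-. Plec, which encodes a linker between filaments, had the status FAIL and was listed at 0, so no value is given for it.

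Known partners of the Snail and Zeb proteins were also listed. The 17 entries were for corepressors, kinases, ubiquitin ligases and Smads, with Ep300 and the Snail paralog Snai3 also in the list. Of the 17, 15 passed the minimum, of which none rose, 1 fell and 14 stayed within 2-fold. The shares of all genes kept were 8.47% higher and 10.9% lower. Snai3 was under the minimum. At 1.5-fold, 3 were higher and 2 lower, next to 14.1% and 23.7%. Among the 3 was an entry of Gsk3b, at 0.891 RPKM in Dnmt1+/+ and 1.63 in Dnmt1-/-, which reached 1 RPKM in Dnmt1-/- alone. Another entry of Gsk3b at the same locus was at 12.3 and 13.3 RPKM, respectively, and was not past 1.5-fold. Both Gsk3b entries are among the 15 that passed the minimum. Ctbp1, a corepressor of Zeb proteins, had the status FAIL and was listed at 0, so no value is given for it. The one that fell was Kdm1a, a histone demethylase that Snail recruits, from 35.7 to 17.0 RPKM, a change of -1.06 that is no longer past 2-fold after centring on the median of all genes. Hdac2 was at 152 RPKM in Dnmt1+/+ and 134 in Dnmt1-/-. Among 20 claudin entries, 18 were under 1 RPKM in both libraries, and Cldn12 was the most abundant, at 17.3 RPKM in Dnmt1+/+ and 26.8 in Dnmt1-/-.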
